A study of Mus musculus with 18 samples.

Results

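The chromosomal contacts of Il4 in Stat6 knockout cells cultured under Th2 conditions were compared with those in wild-type Th2 cells. The members were chosen by title: the 2 arrays of Il4 contacts in Stat6 knockout cells and the 2 arrays of Il4 contacts in Th2 cells, 4 of the 18 arrays of the series. The series measured contacts of Il4 and Ifng in mouse CD4 T cells by 4C, in which crosslinked chromatin was cut, ligated and amplified outward from a chosen gene, the bait, and hybridised to a tiling array. All 4 samples are labelled as primary CD4+ T cells with the treatment Th2. They differ in the Stat6 genotype, and the labels name no strain, age or knockout allele and no number of mice per culture. The other Il4 arrays, 2 of naive cells and 2 of Th1 cells, served as reference levels and shared the estimate of the spread. An array of this kind reads contacts and not expression, so neither the loss of Stat6 nor the Th2 state of the cells could be checked in these files.

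Il4 encodes interleukin 4, the signature cytokine of Th2 cells, and lies in a cytokine cluster with Il13 and Il5. Interleukin 4 binds a receptor that contains Il4ra, which activates the transcription factor STAT6; STAT6 dimers bind DNA and induce Gata3, the master regulator of the Th2 lineage. T cells without STAT6 respond poorly to interleukin 4 and largely fail to become Th2 cells. In 4C, the signal on the bait's own chromosome falls steeply over the nearest megabases, and more distant signal is usually found in gene-rich, active regions.

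The STAT6 dimer recognises the palindrome TTCNNNNGAA, and the bait gene itself carries a match in its promoter. The 250 bases before the Il4 start are shown because they place that match at the gene whose contacts were read (RefSeq, GRCm38.p6, chr11:53618666-53618915, minus strand, printed 5′ to 3′ in the direction of transcription, with the match in capitals).

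Il4: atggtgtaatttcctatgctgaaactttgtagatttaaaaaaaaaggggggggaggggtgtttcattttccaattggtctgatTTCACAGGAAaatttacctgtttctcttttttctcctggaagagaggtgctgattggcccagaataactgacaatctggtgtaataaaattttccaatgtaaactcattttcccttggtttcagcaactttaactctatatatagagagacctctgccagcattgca

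The match, TTCACAGGAA, ends 157 bases before the gene start. The motif is its own reverse complement, so the search of the printed strand covers both strands. Windows of the same length before the other Il4 start, Il13 and Il5 held 0 matches, and 1923 of 32851 mouse promoters (5.85%) held at least 1. The match describes the sequence and no binding was measured here. All array positions below are in mm8, inferred from the probes, and are not in the build of this sequence.

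Each array had 384942 probes, and each value was a log2 ratio of the 4C DNA over cut genomic DNA, centred so that 0 is the median of the probes off chromosome 11. The highest 500-kb bin of every Il4 array was at chr11:53000001-53500000 or chr11:53500001-54000000, which places the bait near position 53450000. The replicates correlated over the 233 bins of chromosome 11 with r = 0.91 for the knockout arrays and 0.83 for the Th2 arrays. Over the 4788 bins of the other chromosomes r was 0.42 and 0.63, and knockout replicate 2 reached at most that 0.42 with any other Il4 array. These bins share probes, depth and base composition. Th2 replicate 2 stood apart in another way: over single probes it correlated with replicate 2 of the Ifng Th1 arrays at r = 0.35, above its correlation with Th2 replicate 1 (0.24). The knockout replicates correlated with each other over single probes at r = 0.18, lower than the Th2 pair. The knockout pair had sorted values within 0.011 of each other for 99.9% of probes, as did the naive pair (99.85%) and the Th1 pair (99.99%), and the Th2 pair for 10.8%. The probe SD was 0.55 in both knockout arrays, 0.53 in both naive arrays and 0.56 in both Th1 arrays. In the Th2 arrays it was 0.39 and 0.46. The knockout, naive and Th1 pairs thus each share a common distribution of values, and the Th2 pair does not. How far this sets the spread between replicates, or the unscaled difference from Th2 cells, was not tested. The knockout arrays form a serial series of their own, so array series and genotype cannot be told apart. The design text speaks of biological replicates without saying what was separate, so the p-values below rest on the spread between 2 arrays per group, which may be technical.

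Along chromosome 11 the mean contact signal of Il4 was higher in the Stat6 knockout than in Th2 cells on the deposited log2 scale, and lower than in naive cells. The mean over the 233 bins more than 1 Mb from the bait was 0.18 in both Th2 arrays, 0.35 and 0.33 in the knockout arrays, 0.34 and 0.64 in the Th1 arrays and 0.60 and 0.73 in the naive arrays. The knockout arrays lay above both Th2 arrays and below both naive arrays, and they overlapped the Th1 range. Bin by bin, the knockout mean exceeded the Th2 mean in 208 of 233 bins, with a median difference of 0.13 against a median SE of 0.10. Over the other chromosomes the median difference was 0.04. Both knockout arrays exceeded both Th2 arrays in 138 of 233 bins (59.2%), where the share over all 5021 bins was 33.7%. They lay below both Th2 arrays in 7 bins of chromosome 11, where the share over all bins was 7.29%. Against Th2 replicate 1 alone both knockout arrays were higher in 173 bins, and against Th2 replicate 2 alone in 157.

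The separation from Th2 cells was smaller once the arrays were brought to a common spread. Divided by the median absolute deviation of its bins off chromosome 11, the mean signal of chromosome 11 was 3.14 and 2.26 in the Th2 arrays and 3.09 and 3.24 in the knockout arrays, and the groups overlapped. Divided by the SD of its bins on chromosome 11, it was 0.81 and 0.95 against 1.05 and 1.03, with no overlap. The share of chromosome 11 bins with a higher knockout mean fell from 89.3% to 68.2% and 66.1% under these scalings and to 60.5% under quantile normalization; over the other chromosomes it was 71.2% unscaled and 62.7%, 61.1% and 47.6% scaled. Both knockout arrays exceeded both Th2 arrays in 64, 69 and 55 bins of chromosome 11 in place of 138, which is 27.5%, 29.6% and 23.6% of its bins against 26.6%, 25.1% and 16.9% of all bins. They lay below both in 20, 22 and 30 bins in place of 7. The chromosome mean of both knockout arrays stayed below both naive arrays under all 3. With the median of a bin's probes in place of the mean, unscaled, the knockout was higher in 147 of 233 bins (63.1%, against 45.6% of bins elsewhere), and the median difference on chromosome 11 was 0.02 in place of 0.13.

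**Figure D1:**
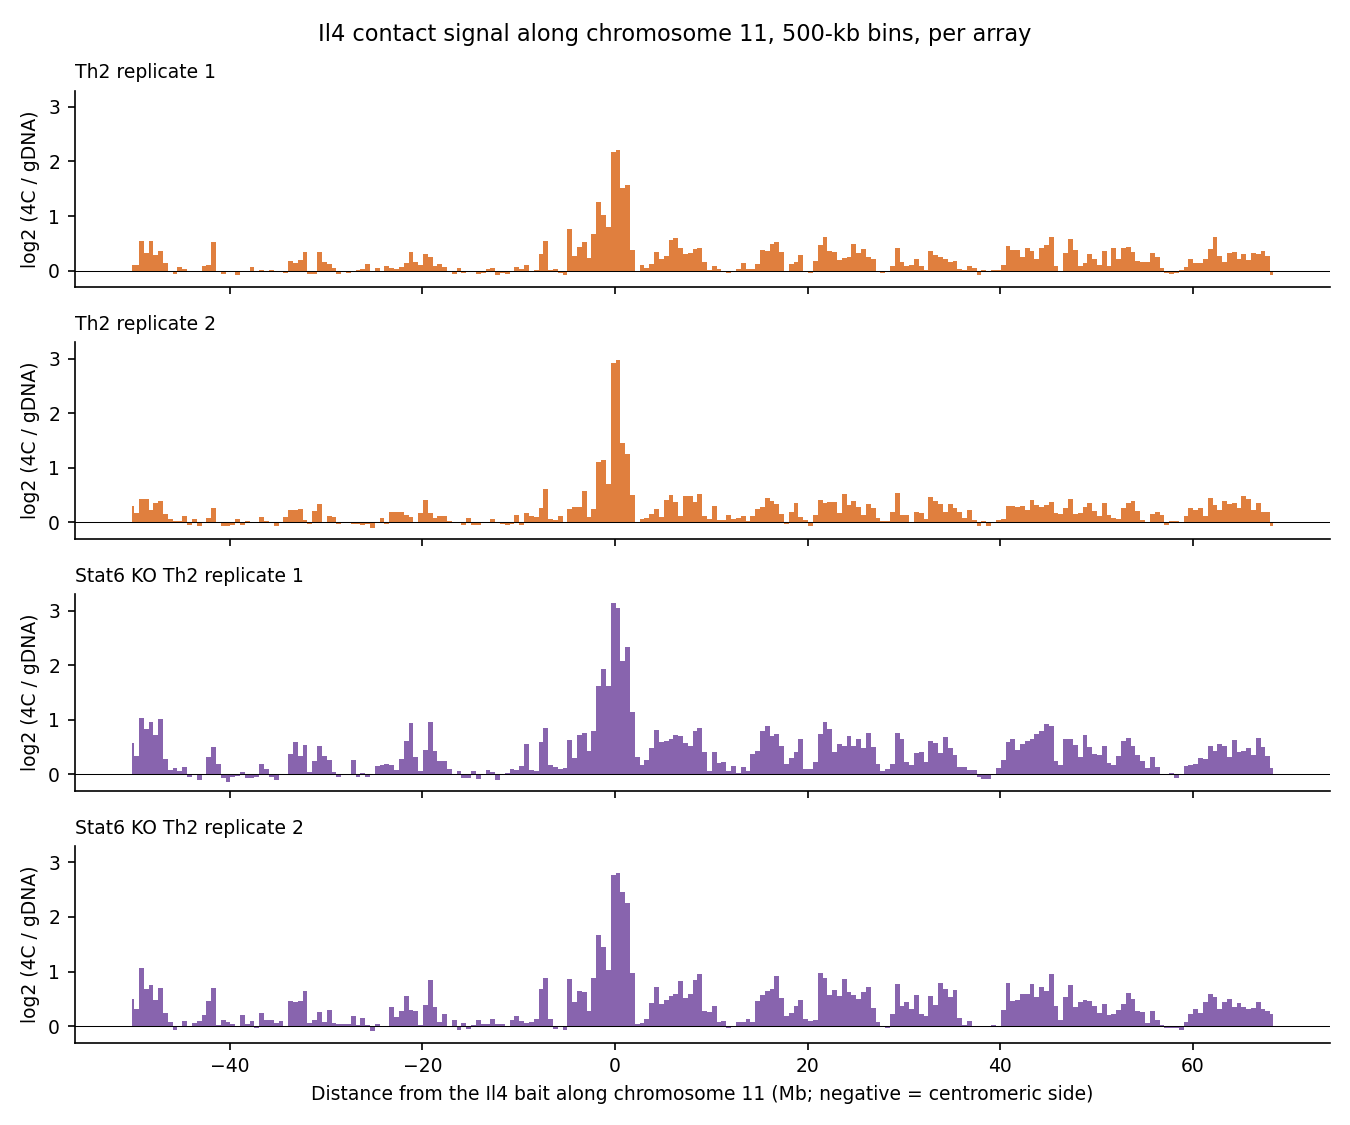
Il4 contact signal along chromosome 11 in each of the 4 compared arrays, as the mean log2 ratio of 4C over genomic DNA per 500-kb bin (vertical axis) against distance from the bait in Mb (horizontal axis, negative towards the centromere). Peaks and gaps lie at like places in all 4 arrays, and on this unscaled axis the peaks are taller in the knockout arrays, whose chromosome means are 0.35 and 0.33 against 0.18 in both Th2 arrays.

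A single bin passed the test across all bins. At chr11:54500001-55000000, with its centre 1.3 Mb on the telomeric side of the bait, the ratio was 1.56 and 1.26 in Th2 cells and 2.33 and 2.25 in the knockout. Both knockout arrays were above both Th2 arrays, and also above the naive arrays (1.83 and 1.99), while the Th1 arrays read 2.31 and 2.57. The difference was 0.88 with an SE of 0.11 (95% interval 0.64 to 1.11; limma adjusted p = 0.0240), and 1 of 5021 bins called is 0.0199%. The bin lies in band 11qB1.3, the band of Il4 itself. The call depends on the scale: divided by each array's spread off chromosome 11 the difference turned to -0.44 (limma adjusted p = 0.989), and divided by its spread on chromosome 11 it was 0.11 (limma adjusted p = 0.937). It was also lost with the replicate number as a block (limma adjusted p = 0.138), without Th2 replicate 2 (0.73, limma adjusted p = 0.250) and without knockout replicate 1 or 2 (0.84 and 0.92, limma adjusted p = 0.176 and 0.369).

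The rest of the chromosome leaned the same way without passing that test. At an unadjusted p under 0.05, 53 bins of chromosome 11 were higher in the knockout and 0 were lower; over all bins these shares were 7.43% and 0.179%. Fitted with the 4 compared arrays alone, without the wider spread of the naive and Th1 pairs, 45 bins passed in limma (0.896% of all bins), all 45 higher in the knockout and 41 of them on chromosome 11. The last of the 41 ends at position 102500000, so a cut there is taken from the calls themselves. Up to it 118 of 194 bins had both knockout arrays above both Th2 arrays, and beyond it 20 of 39 bins did. The parts were not compared by a test.

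The bins of chromosome 11 nearest to passing were spread over both arms of the contact profile. In band 11qD, chr11:97500001-98000000 read 0.42 and 0.28 in Th2 cells and 0.79 and 0.72 in the knockout (difference 0.40, SE 0.07, limma adjusted p = 0.163). In band 11qC, chr11:87500001-88000000 read 0.21 and 0.18 in Th2 cells and 0.68 in both knockout arrays (0.48, SE 0.09, limma adjusted p = 0.238). In band 11qB5, chr11:77500001-78000000 read 0.24 and 0.33 against 0.70 and 0.62 (0.37, SE 0.08, limma adjusted p = 0.295). In each of these the groups did not overlap, and the naive mean was 0.70, 1.13 and 1.09. The fourth, chr11:11000001-11500000 in band 11qA1, read 0.11 and 0.08 against 0.33 and 0.45 (0.30, SE 0.06, limma adjusted p = 0.286). It differs from the others in its reference levels: both knockout arrays exceeded all 6 other Il4 arrays, whose highest value was 0.20. Such an excess was seen in 2 bins of chromosome 11, where the share over all bins was 10.1%. The other is chr11:98500001-99000000 in band 11qD, at 0.62 and 0.37 in Th2 cells and 0.88 and 0.95 in the knockout. With the median of the probes in place of the mean, the differences of the 4 bins nearest to passing were smaller: 0.145 for the bin in 11qD, 0.18 in 11qC, 0.13 in 11qB5 and 0.05 in 11qA1.

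The 5 bins with the smallest p towards a lower knockout value had differences between -0.10 and -0.05, and none passed (limma adjusted p from 0.740 to 0.876). At chr11:33000001-33500000 the ratio was 0.10 and 0.17 in Th2 cells and 0.06 and 0.02 in the knockout, while the naive arrays read 0.54 and 0.42. The knockout was lower than naive there by a tested difference (-0.44, limma adjusted p = 0.00502). At chr11:110000001-110500000 the Th2 arrays read 0.05 and 0.14, the knockout arrays -0.02 and 0.02, and the naive arrays 0.54 and 0.73 (knockout minus naive -0.63, limma adjusted p = 0.00639). These bins are high in naive cells and near 0 in both Th2 cells and the knockout. The remaining 3, at chr11:38000001-38500000, chr11:91500001-92000000 and chr11:112000001-112500000, were near 0 in all 4 compared arrays.

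The unscaled difference was larger in bins with a high level in naive cells. In the 44 bins with a naive mean under 0.1, the mean was -0.01 in both Th2 arrays and -0.003 and 0.04 in the knockout arrays, and 27.3% of bins had both knockout arrays above both Th2 arrays. In the 53 bins from 0.1 to 0.5 the knockout means were 0.16 and 0.12 against 0.04 and 0.08 in Th2 cells (39.6% of bins). In the 66 bins from 0.5 to 1 they were 0.47 and 0.41 against 0.27 and 0.24 (62.1%). In the 70 bins over 1 they were 0.60 and 0.58 against 0.32 and 0.31, and 91.4% of these bins separated. The median difference rose from 0.03 in the lowest class to 0.26 in the highest. The spread of the bins moved with it: the SD over chromosome 11 was 0.22 and 0.19 in the Th2 arrays and 0.33 and 0.32 in the knockout arrays, and the median absolute deviation off chromosome 11 was 0.06 and 0.08 against 0.11 and 0.10. The scaled values above show how much of the separation each scaling leaves.

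**Figure D2:**
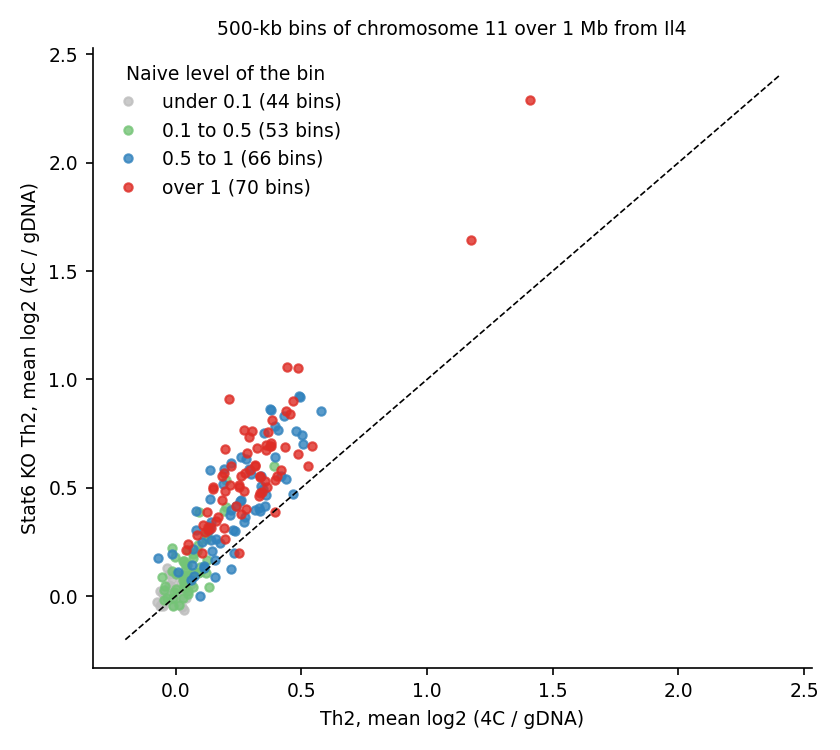
Mean log2 ratio in the knockout (vertical axis) against Th2 cells (horizontal axis) for the 233 bins of chromosome 11 more than 1 Mb from Il4, coloured by the mean of the naive arrays; the dashed line marks equal values. Bins with a naive mean over 1 lie mostly above the line (91.4% with both knockout arrays above both Th2 arrays), and bins under 0.1 cluster at 0.

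Around the bait the compared groups overlapped at the peak and, unscaled, separated on its flanks. The bins closest to the bait, up to 1 Mb away, were not tested and are given as values only. At chr11:53000001-53500000 the ratio was 2.17 and 2.93 in Th2 cells and 3.14 and 2.77 in the knockout, and at chr11:53500001-54000000 it was 2.21 and 2.98 against 3.05 and 2.80. The Th2 replicates differed more from each other there than the group means did. On the telomeric flank, at chr11:54000001-54500000, Th2 cells read 1.52 and 1.45 and the knockout 2.08 and 2.46. On the centromeric flank, at chr11:52000001-52500000 and chr11:52500001-53000000, Th2 cells read 1.02 and 1.15, then 0.80 and 0.71, and the knockout 1.92 and 1.46, then 1.61 and 1.02. All 3 flanking bins had both knockout arrays above both Th2 arrays on this unscaled ratio. Scaled values are not given for these bins. From 1 to 2 Mb away the groups overlapped when divided by the spread off or on chromosome 11. In RefSeq the genes beside Il4 are Il13, Rad50, Il5 and Irf1 on one side and Kif3a on the other; they were not placed in single bins because that table is in another build.

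By distance, the unscaled knockout mean lay between Th2 and naive cells in every class. From 1 to 2 Mb (3 bins) the mean was 1.06 and 0.96 in Th2 cells and 1.70 and 1.63 in the knockout, a difference of 0.65. From 2 to 5 Mb (12 bins) it was 0.31 and 0.20 against 0.52 and 0.46, a difference of 0.24. From 5 to 10, 10 to 20 and 20 to 40 Mb the differences were 0.18, 0.13 and 0.14. Over 40 Mb (78 bins) the Th2 arrays read 0.22 and 0.20 and the knockout arrays 0.38 and 0.36 (difference 0.16). The groups did not overlap in any of the 6 classes on this scale. Divided by the spread off chromosome 11, the groups overlapped in 3 classes: from 1 to 2 Mb (18.9 and 12.3 in Th2 cells against 15.1 and 16.2), from 2 to 5 Mb (5.45 and 2.58 against 4.61 and 4.57) and over 40 Mb (3.93 and 2.62 against 3.42 and 3.54). Divided by the spread on chromosome 11, they overlapped from 1 to 2 Mb (4.86 and 5.14 against 5.12 and 5.15) and from 5 to 10 Mb (0.99 and 1.31 against 1.31 and 1.23). Under quantile normalization, added for this result after the data were seen, they overlapped from 2 to 5, 5 to 10 and over 40 Mb. The classes from 10 to 20 and 20 to 40 Mb stayed apart under all 3. An exact two-sided permutation test of 2 against 2 arrays gave p = 0.333 in each unscaled class, the smallest it can give. With each array left out in turn the unscaled difference from 1 to 2 Mb stayed between 0.60 and 0.71 and that over 40 Mb between 0.14 and 0.17.

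**Figure D3:**
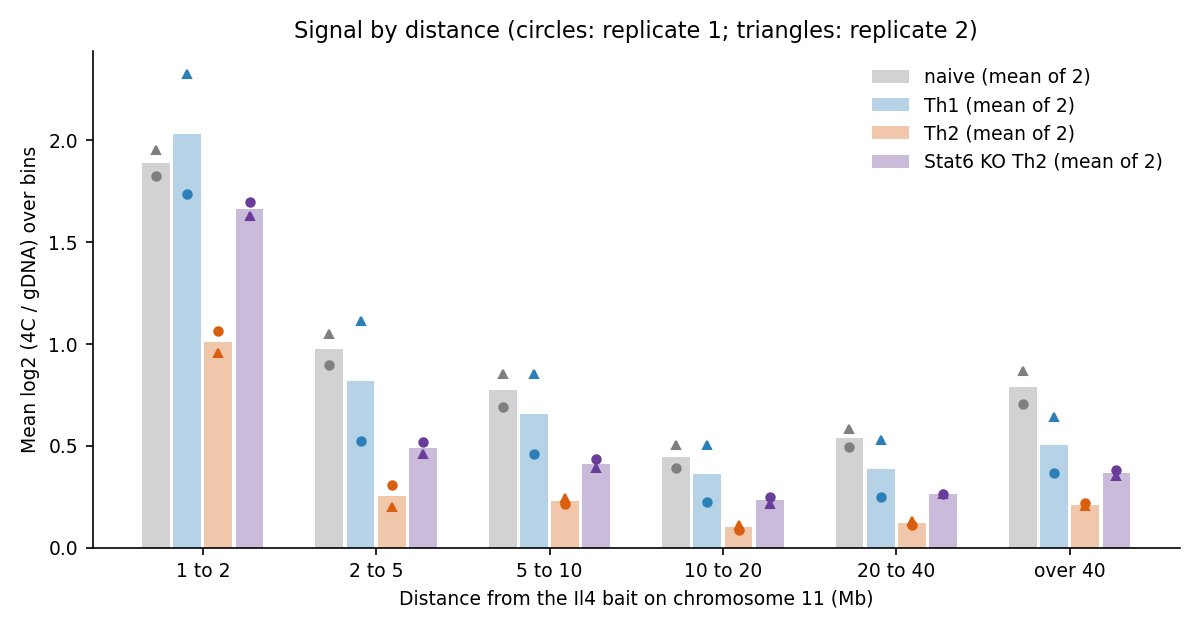
Mean log2 ratio over the bins of chromosome 11 (vertical axis) by distance from the Il4 bait (horizontal axis, Mb) in naive, Th1, Th2 and Stat6 knockout cells; bars are means of 2 arrays and points are the arrays. On this unscaled axis the knockout points lie above both Th2 points and below both naive points in all 6 classes. Scaled by the spread off or on chromosome 11, or quantile normalized, they lie above both Th2 points in 3, 4 and 3 classes.

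The sides of the bait differed in how close the unscaled knockout signal came to naive cells, though not in the same direction at every distance. Over 40 Mb away on the centromeric side (21 bins) Th2 cells read 0.14 and 0.13, the knockout 0.33 and 0.31 and naive cells 0.38 and 0.45. Over 40 Mb away on the telomeric side (57 bins) Th2 cells read 0.25 and 0.23, the knockout 0.41 and 0.37 and naive cells 0.83 and 1.02. The gap between knockout and naive cells over 40 Mb away was larger on the telomeric side, and the knockout arrays lay above both Th2 arrays on both. From 2 to 5 Mb the gap was larger on the centromeric side. The knockout and naive means were 0.61 and 1.20 there, and 0.37 and 0.75 on the telomeric side. In the remaining distance classes it was larger on the telomeric side. The difference between the sides was not tested.

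Genes were placed by cytogenetic band, and none of the 396 bands passed (0% of bands), with 59 bands higher (14.9%) and 1 lower (0.253%) at an unadjusted p under 0.05 in limma. All 18 bands of chromosome 11 had a higher mean in the knockout, and in 17 of them both knockout arrays were above both Th2 arrays, against 52% of all bands; divided by the spread off chromosome 11, 8 bands had a higher knockout mean, with both knockout arrays above both Th2 arrays in 2 and below both in 1. Divided by the spread on chromosome 11, 16 had a higher knockout mean (10 above both, 1 below both), and under quantile normalization 14 did (3 above both, 1 below both). Unscaled, in 0 bands of chromosome 11 were both knockout arrays below both Th2 arrays (3.03% of all bands), and in 16 they were below both naive arrays (4.04%). Fitted with the 4 compared arrays alone, 10 bands passed in limma (2.53%), 8 of them on chromosome 11.

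Band 11qB1.3 holds Il4 with the Th2 cytokine genes Il5 and Il13, Irf1, an interferon-induced transcription factor, and Tcf7, the transcription factor TCF-1 of naive T cells. Outside the bait region it read 0.48 and 0.43 in Th2 cells and 0.84 and 0.72 in the knockout (difference 0.32, SE 0.17, limma adjusted p = 0.404). Both knockout arrays were higher, and 13 of its 16 bins had both above both Th2 arrays. The neighbouring band 11qB2 read 0.39 and 0.38 against 0.69 and 0.72 (0.32, limma adjusted p = 0.339), with all 6 bins separated. These were the bands of chromosome 11 with the highest signal in the knockout. Both differences are unscaled. Divided by the spread off chromosome 11 they turned to -2.70 in 11qB1.3 and -1.63 in 11qB2. Divided by the spread on chromosome 11 they were 0.22 and 0.41.

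Farther out, band 11qD holds Stat3, Stat5a and Stat5b, which encode other STAT factors, Tbx21, which encodes the Th1 regulator T-bet, and Ccr7, a lymph node homing receptor. It read 0.22 and 0.20 in Th2 cells and 0.40 and 0.39 in the knockout (difference 0.18, SE 0.08, limma adjusted p = 0.325), and 17 of its 25 bins separated. Band 11qC holds the chemokine genes Ccl3, Ccl4 and Ccl5 and read 0.15 and 0.22 against 0.38 and 0.40 (0.20, SE 0.12, limma adjusted p = 0.429). Unscaled, both bands stood above Th2 cells in both knockout arrays. Divided by the spread off chromosome 11 the differences were -0.81 in 11qD and 0.05 in 11qC. Divided by the spread on chromosome 11 they were 0.27 and 0.42. Band 11qB3, with the tumour suppressor Trp53, had an unscaled difference of 0.15, and band 11qB1.1, with Ebf1, a B cell factor, one of 0.12. They became -0.19 and -0.03 when divided by the spread off chromosome 11, and 0.27 and 0.22 by that on it.

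At the telomeric end the unscaled knockout signal stayed closer to Th2 cells than to naive cells. This was not particular to that end. It also held for bands 11qB1.3, 11qB2, 11qB5, 11qC and 11qD and for the chromosome mean, and not for 11qA1, 11qA3.1 and 11qA3.3. Band 11qE1 read 0.25 and 0.19 in Th2 cells, 0.35 and 0.30 in the knockout and 0.96 and 1.11 in naive cells. The knockout exceeded Th2 cells by 0.11 (SE 0.10, limma adjusted p = 0.573) and fell below naive cells by a tested difference of -0.71 (limma adjusted p = 0.0462). This was the single band called in that direction, 0.253% of all bands. Band 11qE2, which holds Socs3, a feedback inhibitor of STAT signalling, had a difference from Th2 cells of 0.07 (SE 0.09, limma adjusted p = 0.680). The differences from Th2 cells turned negative under scaling. Divided by the spread off chromosome 11 they were -2.04 in 11qE1 and -2.00 in 11qE2. Divided by the spread on chromosome 11 they were -0.12 and -0.26. The lowest signal was in bands 11qA2 and 11qA5, whose knockout arrays read -0.003 and 0.09, and 0.01 and 0.04.

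**Figure D4:**
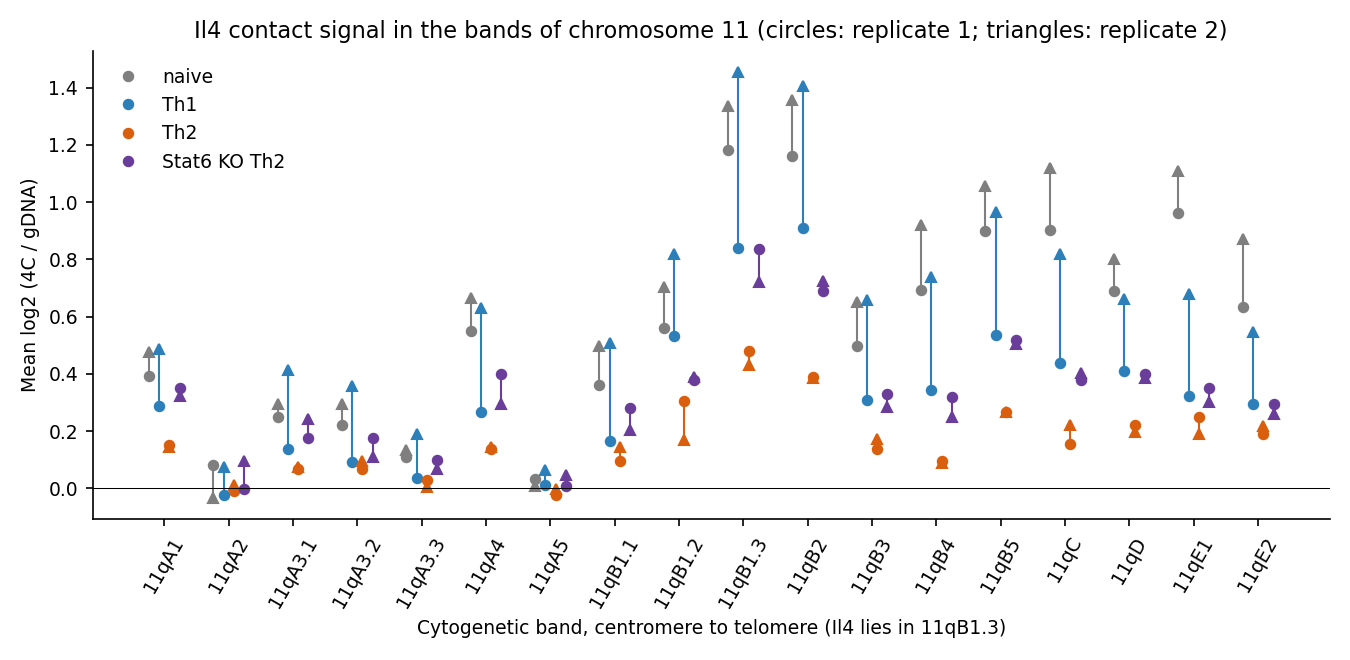
Mean log2 ratio of Il4 contacts (vertical axis) in the 18 cytogenetic bands of chromosome 11 from centromere to telomere (horizontal axis), per array, with lines joining the 2 arrays of a group. The knockout arrays lie above both Th2 arrays in 17 bands on this unscaled axis, and in 11qE1 they stay at 0.35 and 0.30 while naive arrays reach 0.96 and 1.11.

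Against naive cells the unscaled knockout signal was lower on much of chromosome 11. Both knockout arrays were below both naive arrays in 146 of 233 bins (62.7%), where the share over all bins was 6.55%. In limma 58 bins were called lower than naive (1.16% of all bins), all on chromosome 11, and 12 of 5021 higher, all off it. These counts are on the unscaled ratio. Of the 58, 12 lay in band 11qE2, 11 in 11qE1, and 8 each in 11qC and 11qD. Beyond position 102500000, the cut taken from the calls against Th2 cells, 23 of 39 bins were called, and before it 35 of 194. Against Th1 cells limma called 0 bins (0% of all bins), with 167 higher and 144 lower at an unadjusted p under 0.05. The comparisons of the knockout with Th2, naive and Th1 cells share the knockout arrays.

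Contacts were also called within each array, as bins that hold more of the array's highest 5% of probes than expected by a binomial test, a measure that ignores the size of the ratios. In Th2 cells 71 and 24 of the 233 bins of chromosome 11 were called, and in the knockout 103 and 117. Both Th2 arrays called 17 bins and both knockout arrays 95; over all bins those calls cover 0.378% and 1.97%. The Th2 arrays thus called fewer bins than either knockout array, and without Th2 replicate 2 the Th2 set is the 71 bins of replicate 1. With the highest 2% of probes in place of 5% the sets were 28 and 54 bins. Of the 17 Th2 contacts 16 were knockout contacts (94.1% of the Th2 set and 16.8% of the knockout set), where knockout contacts cover 40.8% of the chromosome 11 bins. The exception, chr11:118500001-119000000 in band 11qE2, was called in knockout replicate 2 and missed in replicate 1.

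All 95 knockout contacts of chromosome 11 were among the 158 of 233 bins called in both naive arrays. Of them, 74 were among the 84 of 233 bins called in both Th1 arrays. Of the 95, 54 were called in a single Th2 array and 25 in no Th2 array. The telomeric side held 72 of the knockout contacts among 135 bins, and the centromeric side 23 among 98. By band, 11qD held 15, 11qB1.3 held 13 and 11qB5 held 12, while the Th2 counts there were 0, 3 and 2. In 11qB2 all 6 bins were knockout contacts and 3 were Th2 contacts. Bands 11qA2, 11qA3.3 and 11qA5 held 0 contacts of either group. Among the highest 5% of an array's probes lay 12.6% and 9.40% of the chromosome 11 probes in Th2 cells, 16.3% and 17.5% in the knockout, and 28.9% and 35.8% in naive cells.

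Off chromosome 11 no bin passed with all Il4 arrays in the fit. At an unadjusted p under 0.05, 320 of 4788 bins were higher in the knockout and 9 lower. The bin nearest to passing, chr12:21000001-21500000, read 0.002 and -0.03 in Th2 cells and 0.36 in both knockout arrays (difference 0.37, SE 0.05, limma adjusted p = 0.0748), over 34 probes where the median bin holds 78. At chrX:52000001-52500000 the ratio was -0.04 and 0.03 against 0.35 and 0.34 (0.35, SE 0.05, limma adjusted p = 0.0887), over 37 probes. At chr8:84500001-85000000, in band 8qC2, it was 0.03 and -0.07 against 0.33 and 0.31 (0.34, SE 0.06, limma adjusted p = 0.163), over 92 probes. Neither group overlapped the other in these bins, and all 3 passed in limma with the 4 compared arrays alone (adjusted p = 0.00815, 0.0166 and 0.0168). With the median of the probes their differences were 0.18, 0.17 and 0.055 (limma adjusted p = 0.996 each), and with extreme probes left out that on chromosome 12 was 0.17 (limma adjusted p = 0.424). The smallest p towards lower values were at chr14:52500001-53000000 (difference -0.24), chrY:500001-1000000 (-0.24) and chr6:8500001-9000000 (-0.16), and none passed (limma adjusted p from 0.600 to 0.615).

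The bin on chromosome 8 was also a called contact. The knockout had 4 contacts among the 4788 bins off chromosome 11 (0.0835%) and Th2 cells 2 (0.0418%), with 0 shared. Sets this small would seldom overlap, so the lack of overlap is not read as a difference. The others in the knockout were chr4:32500001-33000000 (band 4qA5), chr4:134500001-135000000 (band 4qD3) and chr19:5500001-6000000 (band 19qA). On chromosome 19 the ratio was 0.16 and 0.18 in Th2 cells and 0.42 and 0.44 in the knockout, and at chr4:134500001-135000000 it was 0.11 and 0.27 against 0.51 and 0.44. The Th2 contacts, chr7:142000001-142500000 and chr15:78000001-78500000, read 0.21 and 0.20 against 0.22 and 0.23, and 0.15 and 0.26 against 0.43 and 0.27. Their unscaled levels were thus not lower in the knockout. Divided by the spread off and on chromosome 11, the differences were -1.02 and -0.32 on chromosome 7. On chromosome 15 they were 0.26 and 0.04.

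Whole chromosomes moved little. In 14 of the 20 other chromosomes both knockout arrays had a higher mean than both Th2 arrays, and in 0 a lower. Differences ran from -0.15 on chromosome Y to 0.12 on chromosome X, with a median of 0.04. On chromosome X the knockout arrays read 0.03 and 0.18 against -0.01 in both Th2 arrays, so most of that difference came from knockout replicate 2. On chromosome Y they read -0.05 and 0.15 against 0.10 and 0.31, and the groups overlapped.

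**Figure D5:**
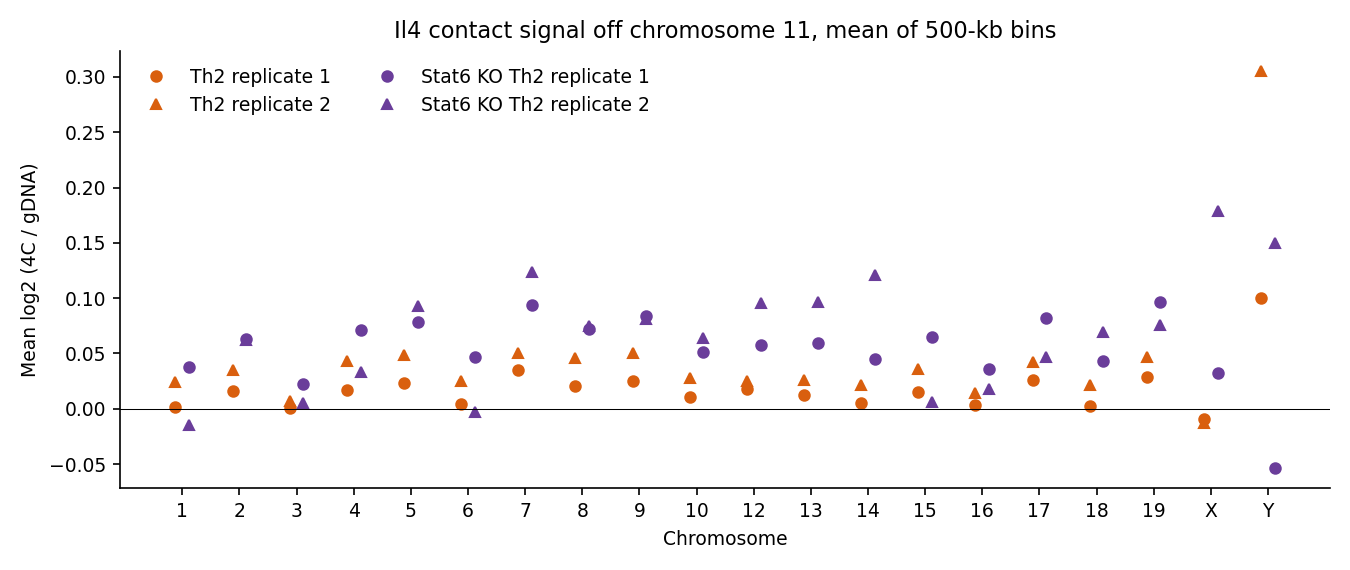
Mean log2 ratio over the 500-kb bins of each chromosome other than 11 (vertical axis) by chromosome (horizontal axis) in the 2 Th2 and 2 knockout arrays. Most chromosome means lie between -0.05 and 0.15; knockout replicate 2 stands at 0.18 on chromosome X and Th2 replicate 2 at 0.31 on chromosome Y.

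The genes of the pathway itself lay in bands that did not pass. The band of Gata3 (2qA1) read 0.02 and 0.04 in Th2 cells and 0.08 and 0.13 in the knockout (difference 0.07, SE 0.03, limma adjusted p = 0.325). The band of Il4ra (7qF3) had a difference of 0.06, and that of Maf (8qE1), a transcription factor that activates Il4, one of 0.08. The band of Runx3 (4qD3), which encodes a repressor of Il4 in Th1 cells, read 0.13 and 0.21 against 0.30 and 0.26 (0.11, SE 0.07, limma adjusted p = 0.430), and it also holds a knockout contact bin. The band of Stat6 (10qD3) differed by 0.04, that of the interleukin 12 receptor gene Il12rb2 (6qC1) by 0.03, that of Stat4 (1qC1.1) by -0.01 and that of Ifng (10qD2) by -0.01. Bands of the cytokine gene Il10 (1qE4) and the chemokine receptor gene Ccr4 (9qF3) differed by 0.01 and 0.05. The median over all bands was 0.04. These values are unscaled. Divided by the spread off chromosome 11, the differences were 0.47 in 2qA1, -0.09 in 7qF3, -0.12 in 8qE1 and -0.80 in 4qD3. They were 0.12 in 10qD3, 0.59 in 6qC1, -0.21 in 1qC1.1, -0.39 in 10qD2, -0.58 in 1qE4 and 0.002 in 9qF3. Divided by the spread on chromosome 11, they were 0.24 in 2qA1, 0.09 in 7qF3, 0.10 in 8qE1 and 0.02 in 4qD3. On that scale they were 0.07 in 10qD3, 0.19 in 6qC1, -0.07 in 1qC1.1, -0.11 in 10qD2, -0.15 in 1qE4 and 0.08 in 9qF3.

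Of the gene lists, the Th2 programme had 13 of 16 genes placed in 11 bands, of which 0 passed, 7 had both knockout arrays above both Th2 arrays and 0 had both below; over all bands 52% had both above. For the Th1 programme it was 6 of 10 bands, for JAK-STAT and SOCS genes 10 of 12, for naive T cell genes 6 of 11 and for Th17 and Treg genes 7 of 10. Genes of other cell types were alike in this: 7 of 8 bands for B cell genes, 5 of 7 for myeloid and NK genes and 6 of 8 for housekeeping genes. No band of any list passed in limma, and 0 had both knockout arrays below both Th2 arrays. The median difference was 0.06 for the Th2 programme, for myeloid and NK genes and for housekeeping genes, 0.10 for the B cell list and between 0.04 and 0.05 for the other lists, against 0.04 over all bands.

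In 5-Mb windows 0 of 527 passed (0% of windows), with 59 higher (11.2%) and 0 lower at an unadjusted p under 0.05 in limma. On chromosome 11, 23 of 25 windows had both knockout arrays above both Th2 arrays, against 52% of all windows; in 0 both were below (3.98%), and in 22 both were below both naive arrays (4.17%). With the 4 compared arrays alone 8 windows passed in limma (1.52%), all on chromosome 11. The window chr11:95000001-100000000, in band 11qD, read 0.31 and 0.28 in Th2 cells and 0.59 and 0.57 in the knockout (difference 0.28, SE 0.10, limma adjusted p = 0.394 with all arrays and 0.00698 alone). These values are unscaled, and divided by the spread off chromosome 11 the difference of that window was -0.45. Divided by the spread on chromosome 11 it was 0.43. The window at chr11:110000001-115000000 had the smallest unscaled difference on the chromosome, at 0.06 and 0.11 against 0.09 and 0.10.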

How the data were processed

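The authors deposited 1 value per probe for each array, a log2 ratio of Cy5 (4C DNA) over Cy3 (genomic DNA cut with the same enzymes), per the labels; the base was taken as 2. Scanner software, filters and build are not given in the sources used here. The labels' protocol describes adherent cells and other baits, and the design text counts a pooled array without naming it; titles were followed. Chromosome ends of mm8 fit all 21 chromosomes (5 had a probe past the end in mm9 and 8 in mm10). The median of the probes off chromosome 11 was subtracted from each array, and values were averaged over 500-kb bins (at least 20 probes), 5-Mb windows (200) and bands of circlize 0.4.16 (40); probes or bins closer than 1 Mb to the bait were not tested, and genes within 500 kb of a band edge were not placed. limma 3.58.1 in R 4.3.3 (lmFit, eBayes) fitted the 8 Il4 arrays in 4 groups, two-sided, with Benjamini-Hochberg adjustment over all features at 0.05. Members and lists were chosen with earlier results of these data known. Named are all passing features and, where fewer than 10 bins passed, those with the smallest p in each direction (5 on chromosome 11, 3 elsewhere; 3 for windows and bands), with 26 landmark genes, of which 1 is not reported here. Replicate numbers did not pair the arrays by the labels. On simulated data for the comparison of knockout with Th2, 200 of 5021 bins were changed. Of changes of 0.2, 0.4 and 0.8, 33.9%, 98.5% and 100% were recovered, and 3.66% of calls were false. In the real data the median SE was 0.10 on chromosome 11 and 0.06 elsewhere. There chr11:34000001-34500000 and chr11:55000001-55500000 differed by 0.70 and 0.62 and did not pass (limma adjusted p = 0.540 and 0.634). The simulated shares therefore do not give the share of real changes found on chromosome 11. Alternatives covered scaling, bin size, filters, arrays fitted and each array left out. Tables and figures used Python 3.11.15, pandas 2.3.3, numpy 2.4.6 and matplotlib 3.10.9.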

Additional observations from a re-analysis of the deposited data

How the results depend on the processing

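The direction on chromosome 11 by distance held with every array left out, with differences of 0.60 to 0.71 (1 to 2 Mb), 0.18 to 0.29 (2 to 5), 0.16 to 0.20 (5 to 10), 0.12 to 0.15 (10 to 20), 0.13 to 0.15 (20 to 40) and 0.14 to 0.17 (over 40); scaled or quantile normalized, every class kept its sign. The count of called bins, 1, became 0 with the median of the probes, scaling by the spread off chromosome 11, 100-kb or 1000-kb bins, 2 with scaling on chromosome 11, with trend and robust settings or with chromosome 11 left out, 6 with quantile normalization (5 higher, 1 lower) and 45 with the compared arrays alone; leaving out an array gave 0 to 1. With the replicate number as a replicate block it was 0 (bins), 0 (windows) and 0 (bands). The replicates' deviations correlated at -0.03 on chromosome 11 and -0.16 elsewhere; a crossed replicate block, added after seeing the data, called 11, 0 and 0. Windows went from 0 to 8 and bands from 0 to 10 with the compared arrays alone; bands gave 1 with quantile normalization, 1 with scaling on chromosome 11, and 0 to 6 with an array left out. The cause of these changes was not tested.

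The bin at chr11:54500001-55000000 reversed to -0.44 when scaled by the spread off chromosome 11, and kept its sign but not its call with the median of the probes (1.49), with extreme probes left out (1.24) and with trend and robust settings (limma adjusted p = 0.825); under quantile normalization its difference was 0. With the median of the probes the other named higher bins kept their sign at 0.05 to 0.18. The window chr6:5000001-10000000 ranged from -0.193 to 0.00839 with an array left out, positive without knockout replicate 2. Contact calls on chromosome 11 (Th2 17, knockout 95) were 28 and 54 with the highest 2% of probes, 24 and 94 with 10%, and 34 and 62 in 1000-kb bins, where 34 were shared; without an array of the group they were 24 to 71 and 103 to 117. Off chromosome 11 they were 0 and 1 (2%), 7 and 18 with 4 shared (10%), and 3 and 7 with 1 shared (1000 kb), and 11 to 23 and 18 to 39 without an array. A fit with the array series as a block was not run, because the knockout arrays are alone in theirs. The number of arrays limits the precision: the median SE of a bin of chromosome 11 was 0.10.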

Other observations

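The low values at the start of chromosome 6 came from knockout replicate 2. Band 6qA1 read -0.002 and -0.004 in the Th2 arrays and -0.01 and -0.19 in the knockout (difference -0.10, SE 0.06, limma adjusted p = 0.420), and the window chr6:10000001-15000000 read -0.02 and 0.004 against -0.04 and -0.21 (limma adjusted p = 0.394). Band 16qA2 read 0.01 and -0.05 against -0.05 and -0.11 (limma adjusted p = 0.454). Band YqA1 read 0.12 and 0.31 against -0.08 and 0.11, and there it was knockout replicate 1 that lay farthest from the Th2 arrays (limma adjusted p = 0.325).

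The bands and windows off chromosome 11 with the smallest p towards a higher knockout value did not pass, and in the 3 bands both knockout arrays lay above both Th2 arrays. Band XqA3.2 read -0.02 and -0.07 in Th2 cells and 0.14 and 0.15 in the knockout (0.19, SE 0.03, limma adjusted p = 0.130). Band 12qA1.2 read 0.05 and -0.02 against 0.20 and 0.30 (0.23, SE 0.05, limma adjusted p = 0.304), and band 8qC2 read 0.02 and -0.002 against 0.11 and 0.13 (0.11, SE 0.03, limma adjusted p = 0.304). The windows chr7:20000001-25000000, chrX:30000001-35000000 and chrX:160000001-165000000 differed by 0.18, 0.15 and 0.16, with a limma adjusted p of 0.394 each.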
